A study of Mus musculus with 6 samples.

Results

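The chaperones and proteases of mitochondria were followed in the RNA of mouse neural stem cells (NSCs) that carry a mutation of Setd5. They were chosen by name, as 10 of the 53110 rows of the deposited table. The chaperones were Hspd1, Hspe1, Hspa9, Dnaja3 and Trap1, and the proteases were Lonp1, Clpp, Afg3l2, Spg7 and Htra2. All 10 passed the filter on low values, a mean of at least 10 normalized counts over the samples. The cells were primary NSCs from the cortex of mouse embryos, kept as adherent cultures on Matrigel in medium with bFGF and EGF and in an incubator at 21% O2, and both genotypes shared these conditions. The mutation of the Setd5+/- cells had been made with CRISPR-Cas9. The labels list 3 samples per genotype, but the column headers give the 3 WT samples 1 index and lane, and the 3 Setd5+/- samples another index and lane and the name of 1 clone. Both reads of a pair appear to have been counted, since 73.9% to 76.5% of the values from 1 to 10 reads were even, so counts were halved to pairs for a chi-square comparison of samples over genes. On pairs, samples of 1 genotype differed no more than random sampling gives (chi-square per degree of freedom 0.961 to 0.986), against 34.9 to 35.0 between genotypes. The 3 samples of a genotype were therefore counted as parts of 1 library, and n was 1 per genotype.

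With 1 library of each genotype no value here has a replicate check, and an effect of the genotype cannot be told apart from one of the clone, the library, the index or the lane. Errors are given as 95% counting intervals, which cover the sampling of reads only. Each limma p-value concerns the reads of these 2 libraries and not the genotypes. A normalized count is a read count divided by the size factor of the sample. Changes are the log2 of Setd5+/- over WT, computed on log2(normalized count + 1), which understates the change of low genes. In bulk RNA, fewer cells of a type and less RNA per cell cannot be told apart.

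Mitochondria import most of their proteins as unfolded chains. Within the matrix, Hspa9 (mortalin, a mitochondrial Hsp70) pulls chains in and folds them with J-domain partners such as Dnaja3, while Hspd1 (Hsp60) and its lid Hspe1 (Hsp10) form a folding chamber and Trap1 is the Hsp90 of the organelle. Lonp1 and the Clpp barrel with its unfoldase Clpx degrade damaged matrix proteins, Afg3l2 and Spg7 are subunits of the m-AAA protease of the inner membrane, and Htra2 works in the intermembrane space. When unfolded protein builds up in mitochondria, cells are known to raise some of these genes through a response in which Atf4, Atf5 and Ddit3 have been named as factors.

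The promoters of Lonp1 and Clpp are shown because these 2 protease genes lie 363 kb apart on chromosome 17 and moved in opposite directions, and a stretch before the start of Hspe1 is shown because Hspd1 starts near it on the opposite strand. The bases come from the RefSeq table of promoter windows (GRCm38.p6), which holds 7 of the 10 members and lacks Hspa9, Afg3l2 and Htra2. Lonp1 is given from 250 bases to 1 base before its start (chr17:56626904-56627153, minus strand), and Clpp over the same span (chr17:56990014-56990263, plus strand). The stretch of 30 bases at Hspe1 and Hspd1 (chr1:55088056-55088085, plus strand) lies 92 to 63 bases before the start of Hspe1 at 55088148. It lies before the downstream start of Hspd1 (55087932) but inside Hspd1 for its upstream start (55088243). Capitals mark motif matches.
Lonp1: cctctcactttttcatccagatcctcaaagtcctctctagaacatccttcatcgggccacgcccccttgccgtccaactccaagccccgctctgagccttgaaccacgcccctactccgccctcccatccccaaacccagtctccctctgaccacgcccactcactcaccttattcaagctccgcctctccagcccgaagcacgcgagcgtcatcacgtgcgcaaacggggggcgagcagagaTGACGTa
Clpp: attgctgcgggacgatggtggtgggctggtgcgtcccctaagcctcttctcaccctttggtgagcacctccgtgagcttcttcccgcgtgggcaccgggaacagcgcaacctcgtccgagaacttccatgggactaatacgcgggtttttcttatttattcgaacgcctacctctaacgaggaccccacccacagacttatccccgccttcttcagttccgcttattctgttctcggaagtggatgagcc
Hspe1 and Hspd1: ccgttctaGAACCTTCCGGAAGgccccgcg

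In all, 6 motifs were searched on both strands of each window of 300 bases, and a match says only that the letters are there. The letters TGACGT, the core of the cAMP response element that ATF-family factors read, stood 7 bases before the start of Lonp1 and in the window of Trap1, and in 7.51% of all 32851 windows. The letters GAANNTTC, a part of a heat shock element, and CCGGAAG, which ETS factors read, overlapped in the stretch at Hspe1 and Hspd1. They occurred in 7.86% and 8.86% of all windows. The share of GAANNTTC is that of these letters alone, since longer runs of the element were not searched. The ETS letters were also found in the windows of Dnaja3 and Clpp, in Clpp 35 bases after the start and so outside the stretch shown. GCGCANGC, read by NRF1, was found in Spg7, Dnaja3 and the window of the upstream start of Hspd1, and in 9.95% of all windows. No window of a member held TGATGNAA, the composite element read by Atf4 with C/EBP factors (3.97% of all windows), or TTGCGCAA, the C/EBP palindrome (0.183%).

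The mutated gene was lower in the library labelled Setd5+/-. The normalized counts of Setd5 were 2498, 2749 and 2780 in WT and 2151, 1990 and 2055 in Setd5+/-, a log2 change of -0.37 (-0.44 to -0.30). Reads on genes numbered 9995980 to 10004948 per WT sample and 7143309 to 7146147 per Setd5+/- sample. Over the 16266 genes tested the median change was -0.02, and genes of chromosome 1 stood apart with a median of 0.53, against medians from -0.16 to 0.02 on the other chromosomes. Of the 8 NSC markers, 3 were higher, led by Vim (0.60), 4 were lower, led by Fabp7 (-1.65), and 1 did not pass. Their summed level ran from 73571 to 73755 normalized counts over the WT samples and from 53106 to 53777 over the Setd5+/- samples. Fabp7 went from a mean of 36015 in WT to 11490 in Setd5+/-, a larger fall than that of the sum. The sum of the remaining NSC markers was thus higher in Setd5+/-. All 4 astrocyte markers passed the limma threshold (3 higher, led by Gfap at 3.91, and Aldh1l1 lower at -1.36), with sums of 788 to 808 in WT and 1237 to 1397 in Setd5+/-. Of the 5 tested neuron markers 3 were lower, led by Syt1 at -3.46, and the sum of all 6 ran from 10245 to 10609 in WT and from 12476 to 12594 in Setd5+/-, most of it Map2, with Rbfox3 at 0 in Setd5+/-. Of the 4 oligodendrocyte lineage markers reported, 3 were tested, of which 2 were lower, led by Sox10 at -7.05, and Pdgfra was higher (0.25), with sums of 909 to 965 in WT and 611 to 804 in Setd5+/- and Mog at 0 in Setd5+/-. The 5 mesenchymal markers summed to 5.79 to 14.1 in WT and 2.38 to 14.3 in Setd5+/-, with Lum at 0 in both, and the 4 microglia markers to 78.6 to 116.9 and 48.9 to 70.3, nearly all from Csf1r, with Cx3cr1 and Ptprc at 0 in both. Over all tested genes 61.3% passed the limma threshold, 30.3% higher and 30.9% lower. The part of these cell type markers in the changes of the members was not tested.

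Lonp1 and Hspa9 were the members that rose most, Spg7 rose less, Clpp fell most, and Hspd1, Afg3l2 and Dnaja3 fell by smaller amounts, while Hspe1, Trap1 and Htra2 did not pass the limma threshold. In counts, 7 of the 10 members passed it, where 61.3% of all tested genes did. Of these, 3 were higher (30.3% of all genes) and 4 lower (30.9%). Scaled to the genes outside chromosome 1, Dnaja3 and Afg3l2 no longer passed and the split was 3 higher and 2 lower. Past 1.5-fold there were 3 members, Lonp1 and Hspa9 higher and Clpp lower, where 35.4% of all genes passed that limit, 19.6% higher and 15.8% lower. Scaled to the genes outside chromosome 1, 2 members remained, since Clpp at -0.584915 fell just short of the limit, 0.584963 on the log2 scale. The WT and Setd5+/- samples did not overlap in 7 members, as in 65.3% of all genes. These shares lie near those of all tested genes, so what follows concerns single members. The median change over the 10 members was -0.13, and their changes ran from -0.63 to 1.06.

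**Figure D1:**
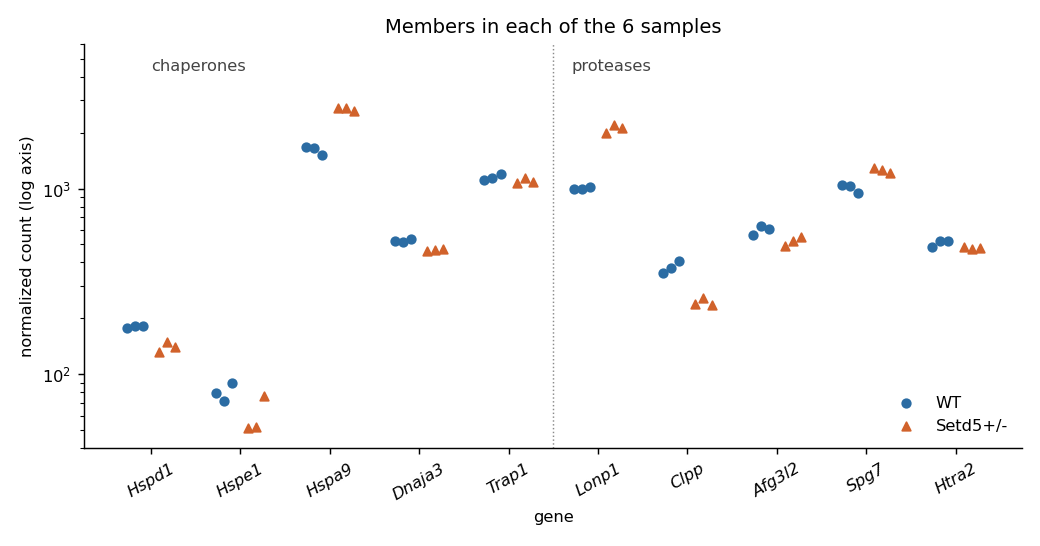
Normalized counts of the 10 members (log axis) in each WT sample (circles) and each Setd5+/- sample (triangles), chaperones at left and proteases at right. The 3 points of a genotype are parts of 1 library; Lonp1, Hspa9 and Spg7 lie higher in all Setd5+/- samples, and Clpp lies lower in all of them.

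**Figure D2:**
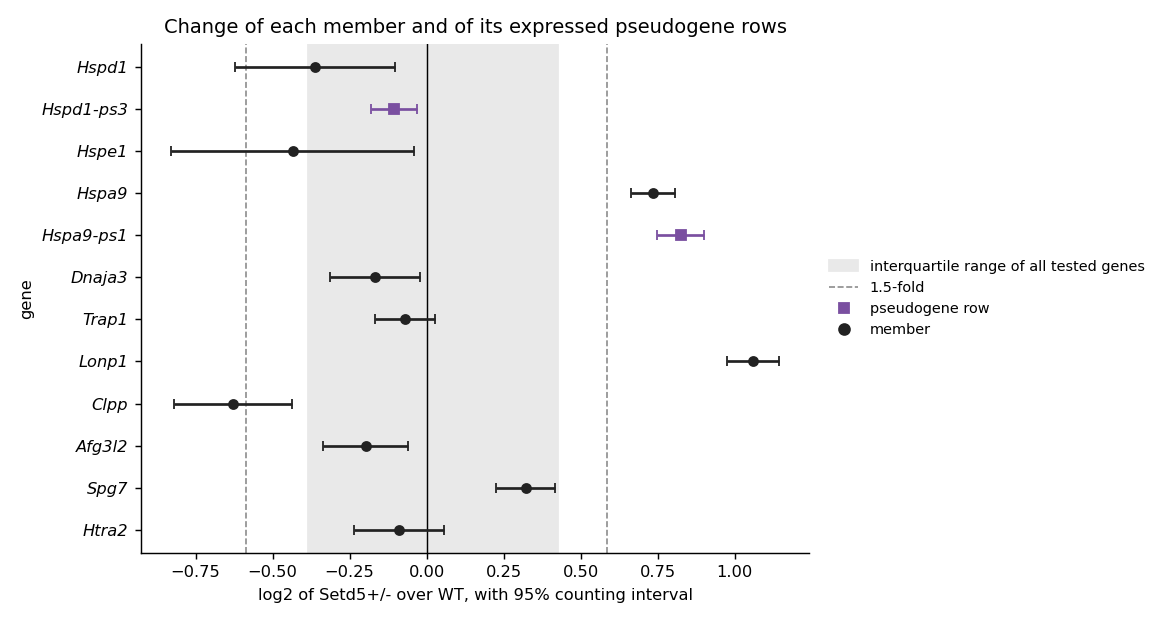
Log2 of Setd5+/- over WT for each member (circles) and for the 2 pseudogene rows with many reads (squares), with 95% counting intervals, the 1.5-fold limits (dashed) and the interquartile range of all tested genes (grey). Lonp1 (1.06) and Hspa9 (0.73) lie beyond the upper limit and Clpp (-0.63) beyond the lower one.

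Of the Hsp60 chamber genes, Hspd1 fell in its own row and Hspe1 did not pass the threshold. Hspd1 (chr1:55077835-55088243, minus strand, GRCm38) had 178, 183 and 181 normalized counts in WT, against 132, 149 and 141 in Setd5+/-. Every WT sample was above every Setd5+/- sample, and the log2 change was -0.36 (-0.62 to -0.10, limma adjusted p = 0.0106). Hspe1 (chr1:55088132-55091307, plus strand), which encodes the lid, had 79.6, 72.0 and 89.4 in WT and 51.2, 52.4 and 76.2 in Setd5+/-. The third Setd5+/- sample lay inside the WT range, and the change of -0.43 (-0.83 to -0.04) did not pass the limma threshold (adjusted p = 0.0569). Without that sample the change was -0.62 and passed (limma adjusted p = 0.0117), and it also passed when the samples were scaled to their totals (limma adjusted p = 0.0380). With any other 1 sample left out it did not pass (limma adjusted p = 0.0593 to 0.198). Nor did it pass with no filter (limma adjusted p = 0.119) or scaled to the genes outside chromosome 1 (limma adjusted p = 0.0863). By their own rows alone, the ratio of Hspe1 to Hspd1 within a library was 0.444 in WT and 0.427 in Setd5+/-. That is a log2 change of -0.07 with a wide interval of -0.54 to 0.40. The annotated exons of the 2 genes share 112 bases, and a kit that does not mark strand cannot assign reads there to 1 gene.

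The row of Hspd1 holds only a small share of the reads that match its transcript. Hspd1-ps3, a pseudogene on chromosome 11 (chr11:41498737-41500458) that matches Hspd1 over 1722 bases at 99.0% identity, had 1930 normalized counts in WT, against 1793 in Setd5+/-. That is 10.7 times the normalized count of the Hspd1 row in WT, with no correction for length, and its change was -0.11 (-0.18 to -0.03). With its 6 near-identical processed pseudogene copies added, the Hspd1 transcript went from 2116 to 1938 normalized counts, a change of -0.13 (-0.20 to -0.05). Hspd1 was lower either way, by less once the copies were added, and its level and fold are uncertain. The 4 processed pseudogene copies of Hspe1 that are rows of the table together had 0.276 normalized counts in WT, against 1.19 in Setd5+/-. The sum with Hspe1 changed by -0.41 (-0.80 to -0.02). Since this sum and that of Hspd1 changed by unlike amounts, the ratio of Hspe1 to Hspd1 depends on whether these reads are added.

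In their own rows, Hspd1 and Hspe1 lay below most of the genes around them. The 20 tested genes nearest to Hspd1 had a median change of 0.46, near that of chromosome 1, and 3 of the 20 were below Hspd1. Over all tested genes 26.2% were below Hspd1, and 9.67% of those on chromosome 1. On the far side of Hspe1, its nearest protein-coding neighbour Mob4 rose (0.43, limma adjusted p = 1.25e-06). Gm16581, a tested gene between Hspe1 and Mob4 in gene order, was at -0.68. Coq10b, beside Hspd1, had -0.17 (-0.45 to 0.10). Relative to the median of chromosome 1, Hspd1 was at -0.89 and Hspe1 at -0.97. All these places use the rows of the genes alone, and with its copies added the change of Hspd1 was -0.13. Why the genes of chromosome 1 were higher as a whole was not tested.

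Hspa9 rose and its partners did not rise with it. Hspa9 (chr18:34937414-34954357, minus strand) had 1678, 1660 and 1511 normalized counts in WT, against 2721, 2726 and 2615 in Setd5+/-. All Setd5+/- samples were far above all WT samples, 1.66-fold in the means, with a log2 change of 0.73 (0.66 to 0.80, limma adjusted p = 1.96e-15). Hspa9-ps1, a pseudogene row on the X chromosome that matches Hspa9 at 92.1% identity over 1905 bases, went from 1332 to 2360, a change of 0.82 (0.75 to 0.90). With its reads added, Hspa9 went from 2948 to 5048, a change of 0.78 (0.72 to 0.83), so the direction and about the same size held for both rows.

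The J-domain partner Dnaja3 (chr16:4639989-4707695, plus strand) had 524, 517 and 535 normalized counts in WT, against 462, 466 and 475 in Setd5+/-. The samples did not overlap, and the change was small, -0.17 (-0.31 to -0.02, limma adjusted p = 0.0336). It did not pass without the first or second Setd5+/- sample or without any 1 of the WT samples (limma adjusted p = 0.0560 to 0.0984). Its exons overlap those of Coro7 on the other strand (153 bases) and of Vasn (160 bases), which rose by 0.50 and 1.14. Grpel1, the factor that exchanges the nucleotide of Hspa9, fell by 0.31 on the log2 scale, from 502 to 405. The ratio of Dnaja3 to Hspa9 went from 0.325 to 0.174 and that of Grpel1 to Hspa9 from 0.311 to 0.151, log2 changes of -0.90 (-1.06 to -0.74) and -1.04 (-1.21 to -0.88). These ratios are within a library and do not depend on its scaling.

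Trap1 (chr16:4039971-4077827, minus strand), the mitochondrial Hsp90, had 1115, 1139 and 1194 normalized counts in WT, against 1070, 1137 and 1078 in Setd5+/-. The genotypes overlapped, and the change of -0.07 (-0.17 to 0.03) did not pass the limma threshold (adjusted p = 0.206). Scaled to the totals of the samples the change was -0.11 and passed (limma adjusted p = 0.0477). Scaled to the genes outside chromosome 1, Trap1 changed by -0.03 and did not pass (limma adjusted p = 0.652). The upper end of its interval is far below the change of Hspa9, and the ratio of Trap1 to Hspa9 changed by -0.80 (-0.92 to -0.68).

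The 2 proteases of the matrix went in opposite directions. Lonp1 (chr17:56614297-56626887, minus strand) had 998, 989 and 1024 normalized counts in WT, against 1983, 2186 and 2114 in Setd5+/-. The lowest Setd5+/- sample was well above the highest WT sample, 2.09-fold in the means, with a log2 change of 1.06 (0.97 to 1.14, limma adjusted p = 5.08e-18). Clpp (chr17:56990305-56996188, plus strand), the proteolytic barrel, had 352, 374 and 410 in WT and 238, 257 and 237 in Setd5+/-. All its Setd5+/- samples were below all its WT samples, and it fell by 0.63 on the log2 scale (-0.82 to -0.44, limma adjusted p = 9.32e-07). Without the third WT sample the change was -0.57 and no longer past 1.5-fold.

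The ratio of Lonp1 to Clpp went from 2.65 in WT to 8.58 in Setd5+/-, a log2 change of 1.69 (1.48 to 1.90) and the largest among the 9 pairs compared. This pair joins the member that rose most and the one that fell most, so no other pair of members could change more. Clpx, the unfoldase that feeds Clpp, fell less than Clpp (-0.25, limma adjusted p = 0.0149), and the ratio of Clpx to Clpp went from 1.12 to 1.46, a change of 0.38 (0.13 to 0.63). Most genes around Lonp1 were below it. The 20 tested genes nearest to Lonp1 had a median of -0.33 and 18 of them were below it. Rfx2 (1.46) and Plin3 (1.32) were above it and were named after their values were seen. Of the 20 nearest to Clpp, 2 were below Clpp. Over all tested genes 90.5% were below Lonp1 and 14.1% below Clpp (93.3% and 13.9% on chromosome 17). The counts among the nearest genes thus lie near those of all genes. Of the nearest protein-coding neighbours, Rpl36 beside Lonp1 was at -0.51 (limma adjusted p = 0.0609) and Alkbh7 beside Clpp at -0.18 (-0.63 to 0.26), and neither passed the threshold. On their other sides, Catsperd beside Lonp1 was below the filter (7.46 normalized counts in WT and 12.3 in Setd5+/-) and Acer1 beside Clpp had no reads.

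**Figure D3:**
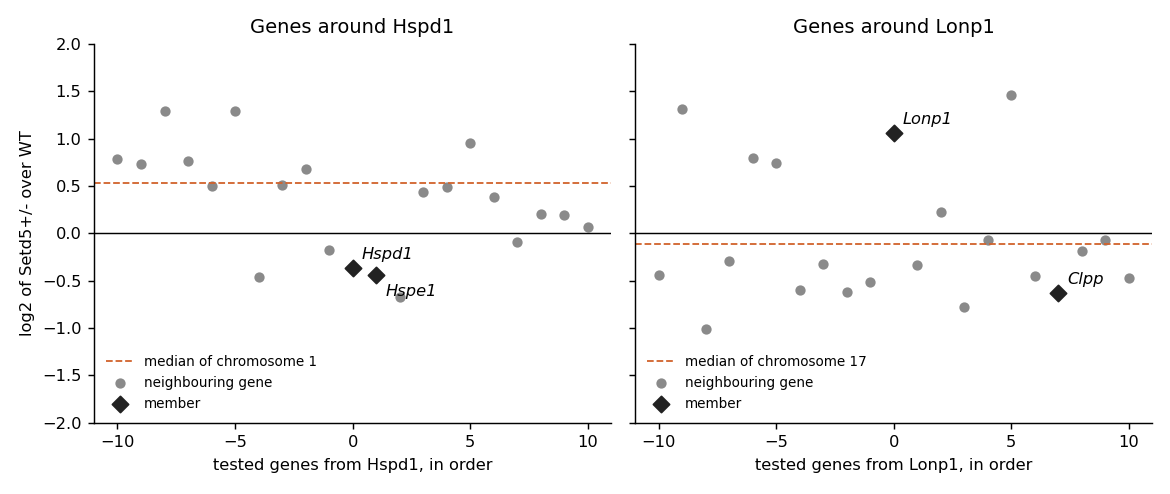
Log2 of Setd5+/- over WT of the 10 tested genes on each side of Hspd1 (left) and Lonp1 (right) in chromosome order, with members as diamonds, other genes as grey circles and the median of the chromosome as a dashed line. Hspd1 and Hspe1 lie below most of a region of higher genes, and Lonp1 lies above 18 of its 20 neighbours while Clpp lies among the lower ones. Over all tested genes 90.5% lie below Lonp1 and 14.1% below Clpp. Each point uses the row of the gene alone, without the reads of copies.

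**Figure D4:**
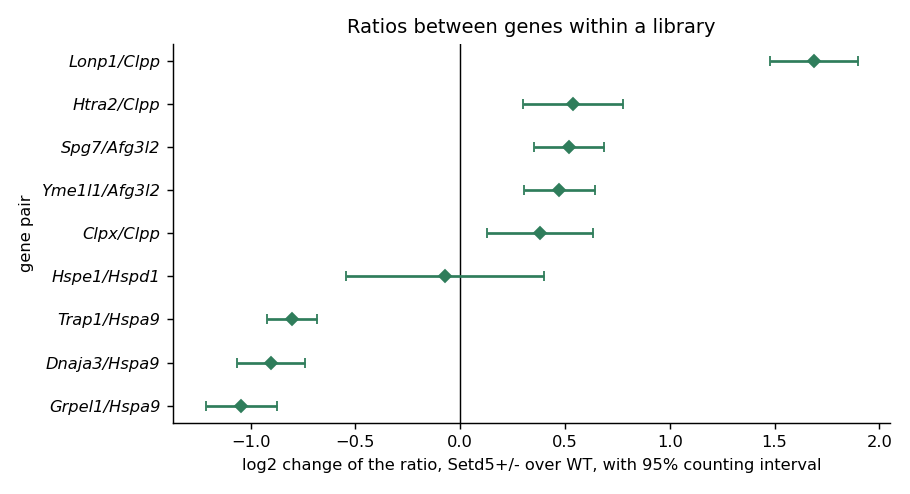
Log2 change of the ratio of 2 genes within a library, Setd5+/- over WT, for the 9 pairs, with 95% counting intervals. Lonp1/Clpp is highest (1.69), the 3 ratios to Hspa9 are lowest, and the interval of Hspe1/Hspd1 includes 0. Each ratio uses the rows of the genes alone, without the reads of copies.

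The m-AAA subunits Spg7 and Afg3l2 also moved apart. Spg7 (paraplegin, chr8:123062942-123097760) had 1039, 1028 and 950 normalized counts in WT, against 1294, 1265 and 1209 in Setd5+/-. All Setd5+/- samples were above all WT samples, with a change of 0.32 (0.23 to 0.42, limma adjusted p = 2.09e-06). Afg3l2 (chr18:67404764-67449172), which can also form the protease alone, had 561, 629 and 605 in WT and 489, 525 and 550 in Setd5+/-. Its groups did not overlap, with a gap between them that was small beside their spread, and the change was -0.20 (-0.34 to -0.06, limma adjusted p = 0.0145). It did not pass without the first Setd5+/- sample (limma adjusted p = 0.0766) or the second WT sample (limma adjusted p = 0.0856).

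The ratio of Spg7 to Afg3l2 went from 1.68 to 2.41, a change of 0.52 (0.35 to 0.69). Afg3l1, a further m-AAA subunit of the mouse, fell like Afg3l2, from 719 to 617 (-0.22, limma adjusted p = 0.00308). Yme1l1, the AAA protease on the other face of the inner membrane, rose with Spg7 (0.28, limma adjusted p = 3.53e-05), and its ratio to Afg3l2 changed by 0.47 (0.30 to 0.64). The scaffold subunits Phb and Phb2, prohibitins that surround the m-AAA protease, fell by 1.35 and 0.45. Maip1, a partner of Afg3l2 on chromosome 1, was higher by 0.21 (limma adjusted p = 0.0233) but at -0.32 relative to the median of that chromosome, and when the samples were scaled to their totals 0 of the 11 partners were called higher. The protein-coding neighbours of Spg7 went both ways, Ankrd11 at 0.30 and Rpl13 at -0.78. Those of Afg3l2, Tubb6 and Prelid3a, were at -0.04 and -0.10 and did not pass the threshold.

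Htra2 (chr6:83051266-83055273), the serine protease of the intermembrane space, had 482, 524 and 523 normalized counts in WT, against 483, 475 and 478 in Setd5+/-. The lowest WT sample lay inside the Setd5+/- range, and the change of -0.09 (-0.24 to 0.06) did not pass the limma threshold (adjusted p = 0.267). Its exons share 753 bases with Aup1 and 535 with Loxl3, both on the other strand and higher in Setd5+/- (0.18 and 0.96), so the reads of Htra2 are uncertain. Relative to Clpp it was higher in Setd5+/-, with the ratio of Htra2 to Clpp going from 1.35 to 1.96, a change of 0.54 (0.30 to 0.78).

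Per kilobase of annotated exon, and by their own rows alone, the order of the members shifted at its top. In WT, Trap1 was highest with 447 normalized counts per kb, then Hspa9 (375), Clpp (309), Lonp1 (230) and Spg7 (223). In Setd5+/-, Hspa9 was highest (623), then Lonp1 (479), Trap1 (426), Spg7 (278) and Clpp (200). Htra2, Dnaja3, Hspd1, Afg3l2 and Hspe1 kept the sixth to the last place in both. With the reads of their copies added, Hspd1 was highest in WT (801) before Hspa9 (684), both above Trap1, and Hspa9 was highest in Setd5+/- (1171) before Hspd1 (733), so the order depends on these reads. The summed normalized counts of the 10 members were 7048 in WT and 9046 in Setd5+/-, and Hspa9 and Lonp1 took 22.9% and 14.2% of the WT sum but 29.7% and 23.2% of the Setd5+/- sum.

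Among the genes that work with the members more were lower than higher. Of 11 co-chaperones, unfoldases and scaffolds, 6 were lower (30.9% of all tested genes were) and 1 was higher (30.3% were). The other 4 did not pass the limma threshold, and the median change of the 11 was -0.25. The share called, 63.6%, was near the 61.3% of all tested genes. Beside Phb, Phb2, Grpel1 and Clpx these held Dnlz, which keeps Hspa9 soluble, at -0.76. Of 13 other proteases and peptidases of mitochondria, 6 were lower and 2 higher, beside the same shares of all tested genes, and 5 did not pass. Their median was -0.22 and the share called was 61.5%. Lactb, a serine protease of the intermembrane space, fell most (-1.03, from 205 to 100), and Xpnpep3, an aminopeptidase, rose most (0.42, from 148 to 197).

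Among 10 factors tied to the mitochondrial unfolded protein response, 5 were higher (30.3% of all tested genes were), 3 lower (30.9% were) and 2 did not pass. The share called was 80.0%, of few genes, against 61.3% of all tested genes, and the median of the 10 factors was 0.19. Atf5, a transcription factor of that response, rose most of them, from 234 to 3785 normalized counts, 16.2-fold and 4.01 on the log2 scale (3.87 to 4.15, limma adjusted p = 3.39e-29). The related factors Atf4 (0.65) and Ddit3 (2.25) were higher too, and Kdm6b, a histone demethylase, fell most (-0.32). Cebpb (2.11) and Phf8 (0.33) were also higher, Ubl5 (-0.31) and Hsf1 (-0.24) were also lower, and Sirt3 and Foxo3 did not pass. Lonp1, Hspa9 and Spg7 rose in the same library as Atf5, Atf4 and Ddit3, while Hspd1, Clpp, Dnaja3 and Afg3l2 fell there. A link between the factors and the members was not tested.

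The relatives of the members outside mitochondria were mostly lower or did not pass. Of 22 tested paralogs, 12 were lower (30.9% of all tested genes were), 1 was higher (30.3% were) and 9 did not pass. The share called was 59.1%, near the 61.3% of all tested genes, and the median of the paralogs was -0.26. Hsp90b1, the Hsp90 of the endoplasmic reticulum, was the 1 that rose (0.30), and Hspa8, the constitutive Hsp70 of the cytosol, fell most (-1.89, from 171 to 46.1). Htra4 was below the filter on low values. Of 5 tested cytosolic heat shock genes 3 were higher (30.3% of all tested genes were), 1 lower (30.9% were) and 1 did not pass, with a median of 0.41. That is 80.0% called, of few genes, against the same 61.3%. Cryab rose most (2.38) and Dnajb1 fell most (-0.91), while Hspa1a, Hspa1b and Hspb1 were below the filter. Reads shared with pseudogenes were not examined for the genes of these lists or for the neighbours of the members, such as Rpl13 and Rpl36.

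**Figure D5:**
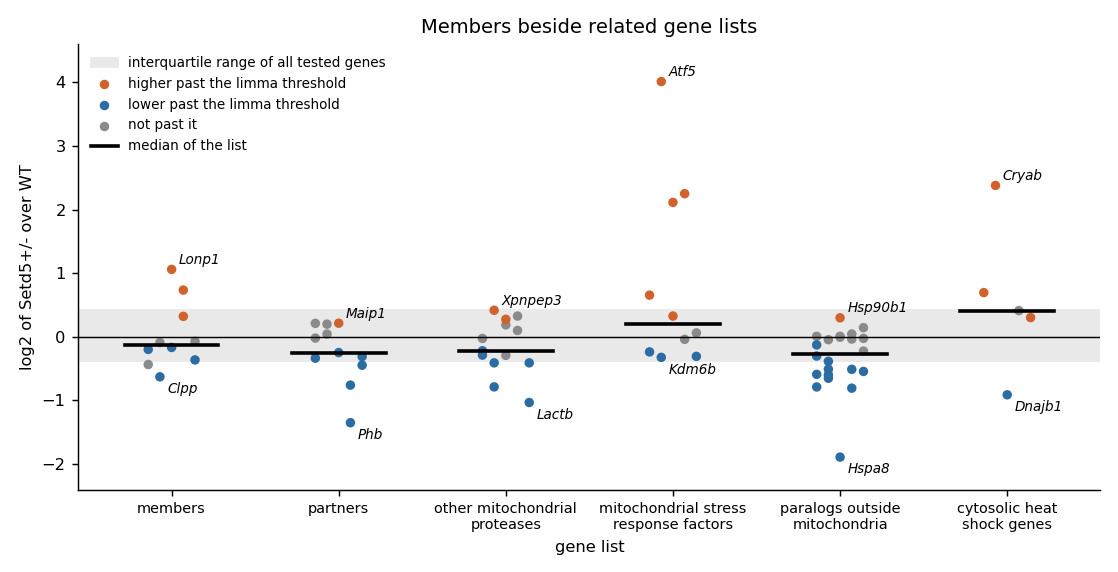
Log2 of Setd5+/- over WT of each tested gene in the 10 members and 5 related lists, coloured by the limma call, with the median of each list (bar) and the interquartile range of all tested genes (grey). The members spread from Clpp (-0.63) to Lonp1 (1.06), and Atf5 (4.01) stands highest of all genes shown.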

How the data were processed

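RNA was made into libraries with a kit that does not mark strand and sequenced from both ends. Per the labels and the study's methods, the authors trimmed reads with Trimmomatic, aligned them with Bowtie2 to mm10 and normalized with DESeq2. The counting program and its use of strand are not given in the sources used here. The deposited values are other than plain counts. They are normalized counts, each gene's count divided by the size factor of the sample, and many had lost their decimal points. Beside them the table carries a log2 fold change and p-value per gene from the authors' comparison, and these were not used.

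Decimal points were restored so that each value became a whole number of reads, with the deposited mean settling the choice for 1116 genes. Depth was 9995980 to 10004948 reads on genes per WT sample and 7143309 to 7146147 per Setd5+/- sample. In all, 16266 genes had a mean of 10 normalized counts or more. Their values, as log2(normalized count + 1), were tested with limma (version 3.58.1 in R 4.3.3, eBayes with a trend), and p-values adjusted by Benjamini-Hochberg were called under 0.05. The DESeq2 test of the methods was not run. The restored reads were used for the counting intervals and for a quasi-Poisson comparison. The 95% counting intervals use the summed reads, with the variance of reads taken as 1.94 times the mean, as seen within genotypes, where both reads of a pair count. Each member had 151 to 6767 reads per genotype.

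Positions are from GENCODE M21 (GRCm38), which held 52402 of the 52438 identifiers with values. Copies of the members were found with blastn 2.17.0 at 90% identity or more over at least 200 bases. Only matches annotated as processed pseudogenes were kept as copies. The motifs were chosen after the promoter bases had been seen. Named genes are the members, Setd5, the gene with the largest rise and fall of each list, genes paired with members, nearest protein-coding neighbours and pseudogenes with reads. Afg3l1, Dnlz, Atf4, Ddit3, Gm16581 and markers named at 0 were named after their values were seen. Cebpb, Phf8, Ubl5, Hsf1, Sirt3 and Foxo3 were then named so that all factors of that list are given. Phb2, Coro7, Pmpca, Pmpcb, Mipep and Atp23 were also named outside this rule. The members and lists were chosen with earlier results of these data known. One of the oligodendrocyte lineage markers chosen is not reported here. Alternatives were other pseudocounts, filters, scalings, fold limits, a replicate block, a quasi-Poisson comparison and each sample left out.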

Additional observations from a re-analysis of the deposited data

How the results depend on the processing

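The calls of Lonp1, Hspa9, Spg7, Clpp and Hspd1 held under each alternative that was tested. With the reads of pseudogene copies added no call was made, and Hspd1 changed by -0.13, against -0.36 in its own row. No change of a member turned its direction under any alternative. Of the ratios only Hspe1/Hspd1 did, at -0.25 to 0.05 with 1 sample left out. Members past the limma threshold numbered 5 to 8 with 1 sample left out, 5 when scaled to the genes outside chromosome 1, 8 when scaled to the upper quartile and 9 when scaled to the total. Members past the fold limit numbered 2 to 4 with 1 sample left out, 2 when scaled to the genes outside chromosome 1, 1 at a limit of 2-fold (Lonp1) and 5 at the lower limit tried (with Hspd1 and Hspe1). Co-chaperones and partners called numbered 4 with no filter and 4 to 7 with 1 sample left out, and unfolded protein response factors called 5 to 8. No scaling moved the median of all genes by more than 0.1. Over the 10 members and Setd5, 152 comparisons with an alternative kept their side of the threshold, 4 gained the call and 9 lost it.

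With the replicate number as a block, 7 members were called, 3 higher and 4 lower, and 9946 genes in all against 9963 without it. Deviations of WT and Setd5+/- samples correlated by -0.0092 to 0.0078, so the numbers do not pair the samples. With 1 clone and 1 library per genotype, depth limits only the counting error, and the spread between cultures cannot be measured here.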

Other observations

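Hspd1 is the mitochondrial relative of the CCT chaperonin, the ring of the cytosol that folds actin and tubulin, and the CCT genes split into groups. These genes were chosen after their values were seen. Of the 8 subunits measured, 5 were lower in Setd5+/- and 3 did not pass the limma threshold, where 30.9% of all tested genes were lower. Cct3 went from 1102 to 729 normalized counts (-0.60, counting interval -0.71 to -0.49), Cct7 from 1370 to 911 (-0.59), Cct6a from 1875 to 1286 (-0.54), Tcp1 from 2020 to 1419 (-0.51) and Cct8 from 2188 to 1677 (-0.39). Cct2, Cct4 and Cct5, which work in the same ring, had changes of 0.01, 0.01 and -0.04, each with an interval that includes 0. Whether pseudogene copies take reads from some of these subunits was not tested.

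The peptidases that trim the import signals of mitochondrial proteins also differed within a pair. Pmpca, the subunit that binds the presequence, went from 1257 to 947 (-0.41, -0.51 to -0.31), while Pmpcb, its catalytic partner, had 871 in WT and 856 in Setd5+/- (-0.03, -0.14 to 0.08). Mipep, which removes a further stretch, was lower by a small amount (-0.29, limma adjusted p = 0.0405), and Atp23, a metalloprotease of the inner membrane, went from 119 to 68.7 (-0.79, -1.14 to -0.43). The replicate check is missing here as for the members.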
